A study of Homo sapiens with 16 samples.

Results

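The gene set described here is the ATF4 response, with the genes of amino acid synthesis and transport that ATF4 is known to switch on. Its 37 members were listed by name, by a rule that sets no threshold on their values, and all 37 were found among the 26364 genes of both count tables. Earlier results of these data were known when the members were chosen. Shares of members set against all genes therefore describe the set and are not a test of it. They comprise 11 regulators and stress genes, 14 enzymes of amino acid and one-carbon synthesis, 10 amino acid transporters, and a last pair made up of the secreted protein STC2 and the lipoprotein receptor VLDLR. Bulk poly(A) RNA-seq was made from Ishikawa cells, an endometrioid adenocarcinoma line, and T-47D cells, a line from a ductal carcinoma of the breast. Both lines were kept in medium without phenol red and with charcoal-stripped serum, which removes steroid hormones, before 10 nM 17β-estradiol (E2) was added for 0 (vehicle), 2, 4 or 8 h. Each line and time had 2 replicates, so 16 libraries in all. No genotype or further treatment separated the groups, and each line is a single tumour line.

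ATF4 is a transcription factor made mainly by translational control. When a kinase such as GCN2 or PERK phosphorylates the initiation factor eIF2α, bulk translation slows while the ATF4 open reading frame is read more, so ATF4 protein can change with little change of its mRNA. ATF4 then pairs with C/EBP proteins on a short composite site and turns on amino acid transporters, enzymes that make serine, glycine, asparagine and proline, and feedback genes such as TRIB3 and CHAC1. In breast and endometrial cells E2 drives growth through the estrogen receptor, and growing cells need amino acids. Only mRNA was measured in these libraries, not ATF4 protein or eIF2α phosphorylation.

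The core of the ATF4-C/EBP site, TGATGNAA on either strand, was looked for in RefSeq promoter windows of 300 bases (250 before and 50 after a transcription start, build GRCh38.p14), since it is the site that ATF4 is known to bind. Windows were found for 29 of the 37 members. ALDH1L2, GPT2, NUPR1, PSPH, PYCR1, SHMT2, SLC7A11 and SLC7A2 had no entry. The core stood in a window of 11 of the 29 genes (37.9%), against 1217 of all 27305 genes in the table (4.46%), and in 13 of 51 member windows against 3.62% of all windows. The stretch around each match is given 5′ to 3′ on the gene's strand with the core in capitals, and where the core lies on the opposite strand its reverse complement is what stands in capitals.
ASNS, chr7:97872453-97872492, minus strand: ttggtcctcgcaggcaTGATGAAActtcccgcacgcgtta
MTHFD1L, chr6:150866341-150866380, plus strand: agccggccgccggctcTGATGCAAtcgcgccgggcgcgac
CEBPG, chr19:33374055-33374094, plus strand: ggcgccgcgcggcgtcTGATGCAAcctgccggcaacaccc
JDP2, chr14:75427990-75428029, plus strand: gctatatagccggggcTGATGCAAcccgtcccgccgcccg
SLC1A5, chr19:46784888-46784927, minus strand: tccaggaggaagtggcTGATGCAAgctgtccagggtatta
SLC7A1, chr13:29595658-29595697, minus strand: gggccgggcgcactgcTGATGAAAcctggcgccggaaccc
SLC38A1, chr12:46266497-46266536, minus strand: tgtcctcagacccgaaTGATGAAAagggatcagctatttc
CHAC1, chr15:40953246-40953285, plus strand: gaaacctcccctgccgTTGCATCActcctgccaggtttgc
GOT1, chr10:99430799-99430838, minus strand: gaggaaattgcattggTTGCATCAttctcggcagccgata
SLC1A4, chr2:64989376-64989415, plus strand: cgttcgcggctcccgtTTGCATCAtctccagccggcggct
SLC3A2, chr11:62881720-62881748, plus strand: taatgtgcaggactccTTACATCAgctcc
The MTHFD1L match lay in 3 overlapping windows and is 1 site. A match of these letters describes the window and is not a measured binding site.

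The full estrogen response element, which is GGTCA, any 3 bases and TGACC, was in none of the 51 member windows and in 0.057% of all windows. An element this rare is unlikely to be met in 51 windows, so its absence says nothing about the members. Sequence outside the windows was not searched. The windows of the 2 members with the largest rise at 2 h in T-47D cells are shown because they carry the early E2 response described below. STC2 holds one arm of the element, GGTCA, marked in capitals, and SLC7A5 holds neither GGTCA nor TGACC. Either arm occurs in 37.4% of all windows.
STC2, chr5:173328365-173328664, minus strand: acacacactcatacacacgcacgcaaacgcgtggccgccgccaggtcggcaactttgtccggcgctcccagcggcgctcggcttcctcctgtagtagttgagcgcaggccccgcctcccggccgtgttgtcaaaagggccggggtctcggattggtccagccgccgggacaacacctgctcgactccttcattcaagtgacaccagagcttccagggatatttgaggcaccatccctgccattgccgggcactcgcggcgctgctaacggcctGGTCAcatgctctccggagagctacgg
SLC7A5, chr16:87869458-87869757, minus strand: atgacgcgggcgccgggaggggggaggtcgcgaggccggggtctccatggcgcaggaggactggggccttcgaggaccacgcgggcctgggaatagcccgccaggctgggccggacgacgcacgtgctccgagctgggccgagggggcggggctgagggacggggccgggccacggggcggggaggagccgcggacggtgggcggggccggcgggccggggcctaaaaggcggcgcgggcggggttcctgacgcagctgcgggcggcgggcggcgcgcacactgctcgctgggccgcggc
Of the 300 bases, 64% in STC2 and 80.3% in SLC7A5 were G or C.

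Libraries held from 41177912 to 58918642 counts (Ishikawa) and from 41223813 to 64148903 counts (T-47D). E2 acted in both lines, as the E2 targets GREB1 and PGR (the progesterone receptor gene) rose at 8 h by 1.65 and 3.75 on the log2 scale in Ishikawa cells, with 2.15 and 1.09 in T-47D cells. All 5 epithelial markers (EPCAM, CDH1, KRT8, KRT18, KRT19) exceeded 1 CPM (counts-per-million) in both lines. All 5 luminal breast markers did so in T-47D cells, whereas GATA3 and TFF3 stayed under 1 CPM in Ishikawa cells. Of the 7 fibroblast markers 2 exceeded 1 CPM in each line, and their sum ran from 158 to 285 CPM in the Ishikawa and 76 to 101 CPM in the T-47D libraries. The median change at 8 h of the 4 fibroblast markers tested was -0.655 log2 (Ishikawa) and -0.568 log2 (T-47D), COL1A2, DCN, PDGFRA and PDGFRB were under 1 CPM in both lines, and the part of this fall in the results below was not tested. Leukocyte markers summed to at most 5.58 CPM, with PTPRC, CD3E, CD14 and LYZ under 1 CPM in both lines. In bulk samples, fewer cells expressing a gene and less RNA per cell cannot be told apart.

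One feature of the Ishikawa libraries touches every later time point. Similarity was measured by Pearson's r across genes, after each gene's mean log2 level over the libraries of its line was subtracted. Genes with few counts were left out. These values describe departures from the line's mean, not the levels themselves. By this measure the first 4-h replicate resembled the second 8-h replicate (r 0.578) more than its own replicate (0.221). The 8-h replicates reached 0.389 with each other. Among the members, 27 of 37 were higher in 4-h replicate 1 than in its partner and also higher in 8-h replicate 2 than in its partner. The same count was not made over all genes, so it is not shown to be particular to the set. Between 8 h and 4 h, 2 of 15787 genes passed an adjusted p of 0.05 in edgeR and 554 had an unadjusted p under 0.05, with 0 and 1 of them members. The labels were kept as given, and the comparison of 4 h and 8 h pooled against 0 h is set beside the single times. The order of events between 4 h and 8 h in Ishikawa cells was therefore not resolved. In T-47D cells the first 4-h replicate was also slightly closer to the second 8-h replicate (0.385) than to its own replicate (0.344). The T-47D 8-h replicates reached 0.564 with each other, and 8 h was not tested against 4 h in that line. The labels do not say whether replicates came from separate cultures, so the p-values measure the spread between these libraries, which may be technical.

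A gene was called when its adjusted p was under 0.05 in the quasi-likelihood test of edgeR, adjusted by Benjamini-Hochberg over all genes of the fit, and all 37 members passed the filter on low counts in both lines. The comparisons within a line share its 0-h libraries, so they are not independent of each other. In Ishikawa cells the set moved late and mostly up. At 2 h, CEBPB and SLC7A5 rose (2 of 37 members, where 2.61% of all genes rose) and DDIT4 fell (1 member, where 1.74% of all genes fell). At 4 h, 10 members rose (27%, where 7.66% of all genes rose) and 1 fell (2.7%, where 6.6% of all genes fell). By 8 h, 17 rose (45.9%, where 12% of all genes rose) and 3 fell (8.11%, where 10.1% of all genes fell). The falls at 4 h and 8 h did not exceed the share of all genes, and the 1 fall at 2 h (2.7%) was near it. The number that rose at 2 h was 4 without 0-h replicate 1. At 4 h it was 6 without 4-h replicate 1 and 16 without 4-h replicate 2, and at 8 h it was 10 without 8-h replicate 2 and 11 without 0-h replicate 2. Without both alike libraries, 6 members rose at 4 h and 11 at 8 h. With 4 h and 8 h pooled, 18 members rose (13.5% of all genes) and 2 fell (12.2%), and 11 rose without 0-h replicate 2. The member that fell at 4 h was DDIT4, and that call was lost without 0-h replicate 2 or 4-h replicate 2. The count that fell at 8 h was 1 in each fit without 0-h replicate 2, without 1 of the 2-h replicates or without 1 of the 8-h replicates. The count that fell at 2 h was 2 without 0-h replicate 1, or without any 1 of the 4-h and 8-h libraries.

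T-47D cells had both rises and falls from the first time point. At 2 h, STC2, SLC7A5 and SLC3A2 rose (3 of 37, where 4.9% of all genes rose), while 6 members fell (4.4% of all genes), namely DDIT4, TRIB3, SESN2, NUPR1, JDP2 and SLC38A2. At 4 h, 8 members rose, where 11.1% of all genes rose, and 5 fell (13.5%, where 10.4% of all genes fell). At 8 h, 16 rose, where 15.4% of all genes rose, and 6 fell, where 14.3% of all genes fell. The falls at 4 h and 8 h were near the share of all genes. The number that rose at 4 h was 5 without 0-h replicate 2 or without 4-h replicate 1. The NUPR1 call at 2 h was lost without 2-h replicate 1 (adjusted p = 0.0563). The median log2 fold change of all 37 members at 8 h was 0.12 in T-47D cells and 0.14 in Ishikawa cells, where the medians of all genes tested were 0.003 and -0.00882. Members had a median mean level of 232 CPM in Ishikawa cells, with 51.3 CPM in T-47D cells, against 22.4 and 21 CPM for all genes tested, and the part of this higher level in the shares called was not tested.

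**Figure D1:**
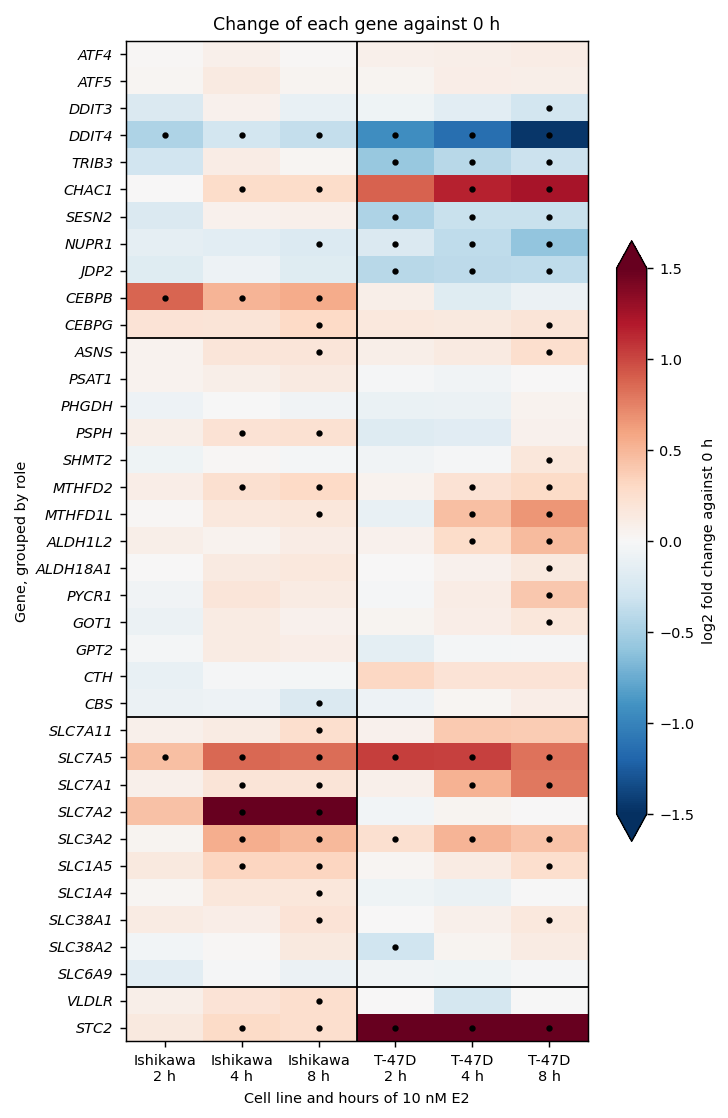
Log2 fold change against 0 h of the 37 genes (rows, grouped by role from regulators at the top through synthesis and transport to VLDLR and STC2) at 2, 4 and 8 h of E2 in each line (columns). Black dots mark an adjusted p under 0.05 and the colour scale is capped at 1.5 in either direction. At 2 h in T-47D cells 5 of 11 regulators were called down (blue), while 5 lay above 0. Both lines show red among the transporters.

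**Figure D2:**
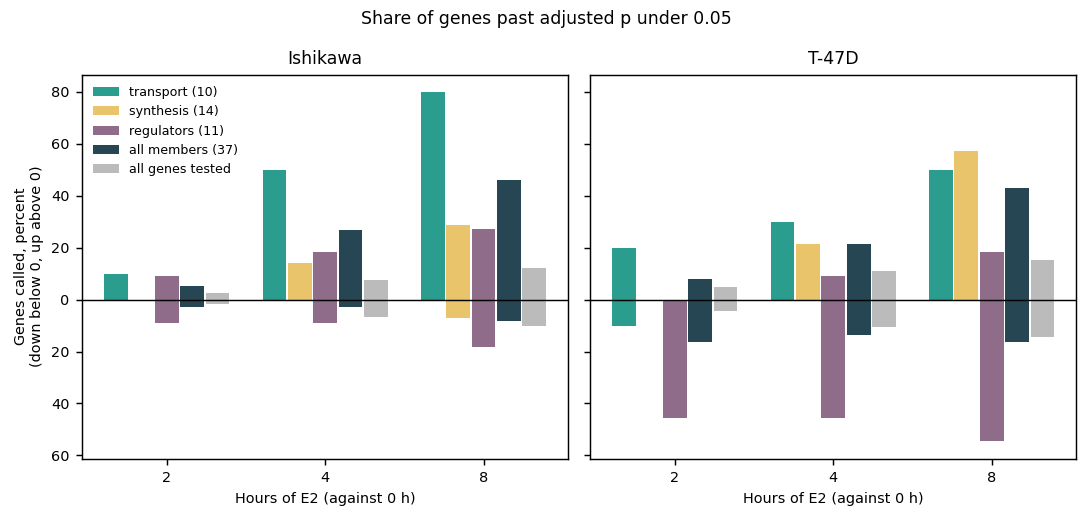
Percent of genes called up (above 0) and down (below 0) at 2, 4 and 8 h against 0 h, for transporters, synthesis enzymes, regulators, all 37 members and all genes tested. At 8 h, transporters rose most often in Ishikawa cells (80%) and synthesis enzymes most often in T-47D cells (57.1%), while 54.5% of the T-47D regulators fell.

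The calls at 8 h were also counted by role, against 12% up and 10.1% down of all genes in Ishikawa cells, and 15.4% up and 14.3% down in T-47D cells. In that comparison, 8 of 10 transporters rose in Ishikawa cells, with 5 of 10 in T-47D cells, and none fell in either line. Of 14 synthesis enzymes, 4 rose and 1 fell in Ishikawa cells, and 8 rose and 0 fell in T-47D cells. Of 11 regulators, 3 rose and 2 fell in Ishikawa cells, and 2 rose and 6 fell in T-47D cells. The 1 of 14 synthesis enzymes that fell in Ishikawa cells (7.14%) and the 2 of 11 regulators that rose in T-47D cells (18.2%) were near the share of all genes. Differences between the roles were not tested. The median log2 fold change at 8 h was 0.23 for transporters, 0.12 for synthesis enzymes and 0.03 for regulators in Ishikawa cells, while T-47D cells gave 0.20, 0.17 and -0.28 in the same order.

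ATF4 mRNA itself (hg19 chr22:39915700-39918688, plus strand) was called at no time against 0 h. In Ishikawa cells it was measured at 1060 and 1130 CPM at 0 h, 1130 and 1100 at 2 h, then 1170 and 1140 at 4 h, and lastly 1100 and 1120 at 8 h. The T-47D libraries gave 170 and 177 CPM at 0 h, 183 and 181 at 2 h, then 181 and 189 at 4 h, and lastly 193 and 183 at 8 h. The Ishikawa groups overlapped at 2 h and 8 h, while every treated T-47D library lay above both 0-h libraries. At 8 h the change was 0.02 log2 in Ishikawa cells (95% interval -0.0815 to 0.116, adjusted p = 0.839) and 0.11 in T-47D cells (0.0263 to 0.203, adjusted p = 0.0647). Without the filter on low counts this T-47D change passed, at 0.12 log2 (edgeR, adjusted p = 0.044). It was 0.08 log2 without 8-h replicate 1 and 0.16 log2 without 8-h replicate 2. ATF5, a factor close to ATF4 in structure, also passed no test, with changes between 0.03 and 0.13 log2 over both lines and all times.

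The C/EBP partners of ATF4 behaved unlike each other. CEBPB (chr20:48807367-48809205, plus strand) was measured in Ishikawa cells at 42.4 and 45 CPM at 0 h, 80 and 79.7 at 2 h, then 63.3 and 61.6 at 4 h, and lastly 63.5 and 64.5 at 8 h. Every treated Ishikawa library lay above both 0-h libraries, and the 2-h libraries were the highest. The rise was 1.83-fold at 2 h (log2 0.87 ± 0.0623, SE, n = 2 per group, adjusted p = 2.1e-07) and 1.47-fold at 8 h. In T-47D cells CEBPB ran at 16.8 and 16.5 CPM at 0 h, 17.3 and 18.2 at 2 h, then 15.1 and 14.2 at 4 h, and lastly 16.2 and 15.2 at 8 h, and passed no test. The antisense gene CEBPB-AS1 overlaps CEBPB, and whether the counting used strand is not given in the sources used here. CEBPG, a C/EBP protein that joins ATF4 on its composite sites, rose at 8 h in both lines, by 0.29 log2 in Ishikawa cells, with 0.19 in T-47D cells.

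Among the stress-induced targets, DDIT4 had the largest fall. DDIT4 (REDD1, chr10:74033678-74035794, plus strand) is an inhibitor of the growth kinase complex mTORC1. In T-47D cells it fell from 119 and 105 CPM at 0 h to 60 and 57.2 at 2 h, then 53.5 and 48.4 at 4 h, and lastly 44.7 and 36.5 at 8 h. Ishikawa libraries gave 725 and 735 CPM at 0 h, 529 and 532 at 2 h, then 640 and 571 at 4 h, and lastly 537 and 602 at 8 h. No treated library reached a 0-h library in either line. The level at 8 h was 0.363 of the 0-h level in T-47D cells (log2 -1.46 ± 0.081, adjusted p = 2.85e-10) and 0.780 in Ishikawa cells (log2 -0.36 ± 0.0645, adjusted p = 0.00129).

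TRIB3, a pseudokinase that holds back ATF4 and AKT, dipped in T-47D cells and partly came back. Its T-47D values were 93.2 and 89.9 CPM at 0 h, 61.2 and 62.6 at 2 h, then 69.2 and 67.8 at 4 h, and lastly 77.5 and 69.5 at 8 h. It fell by 0.57 log2 at 2 h (adjusted p = 9.8e-07) and rose again by 0.25 from 2 h to 8 h (adjusted p = 0.00443), a call lost without 2-h replicate 1 (adjusted p = 0.0656) or 8-h replicate 1 (0.16 log2, adjusted p = 0.0631). In Ishikawa cells TRIB3 was at 216 and 225 CPM at 0 h, 188 and 174 at 2 h, then 264 and 214 at 4 h, and lastly 212 and 238 at 8 h. Both Ishikawa 2-h libraries lay below both 0-h libraries, yet the change of -0.29 log2 missed the threshold (adjusted p = 0.0738) and passed it without any 1 of the 4-h and 8-h libraries, at adjusted p values from 0.0153 to 0.044. From 2 h to the 4-h and 8-h libraries together it rose by 0.36 (adjusted p = 0.00992), which was lost without either 2-h replicate, at adjusted p values of 0.0627 and 0.24.

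SESN2 (sestrin 2, a leucine sensor) was down in T-47D cells by 0.46 log2 at 2 h and by 0.33 at 8 h, and its change from 2 h to 8 h did not pass (0.13, adjusted p = 0.18). JDP2, a repressor of AP-1 sites, was down by 0.41 and 0.38. NUPR1, a small stress-induced nuclear protein, fell further at each time, from 351 and 359 CPM at 0 h to 300 and 310 at 2 h, then 271 and 276 at 4 h, and lastly 236 and 236 at 8 h in T-47D cells. These NUPR1 groups did not overlap, and the change at 8 h was -0.59 log2 (SE 0.0394, adjusted p = 3.5e-09). Ishikawa NUPR1 gave 77.2 and 79.3 CPM at 0 h, 71.7 and 70.8 at 2 h, then 69.2 and 71 at 4 h, and lastly 69.2 and 67.1 at 8 h. All treated Ishikawa libraries were below both 0-h libraries, and the 8-h call (log2 -0.20, adjusted p = 0.0241) was lost in the fits without 0-h replicate 2, either 2-h replicate or either 8-h replicate, with adjusted p values up to 0.138. DDIT3, which encodes the stress factor CHOP, fell by 0.28 log2 at 8 h in T-47D cells (adjusted p = 0.0317) and passed no test in Ishikawa cells.

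CHAC1, an enzyme that breaks down glutathione, rose in both lines from very different levels. Its counts in T-47D libraries were 36 and 17 before E2, 53 and 50 at 2 h, then 98 and 63 at 4 h, and lastly 89 and 57 at 8 h, or 0.81 and 0.412 CPM at 0 h and 1.78 and 1.14 CPM at 8 h. The Ishikawa values were 72.8 and 74.7 CPM at 0 h, 73.2 and 75.4 at 2 h, then 89.9 and 87.9 at 4 h, and lastly 92.2 and 85.9 at 8 h. All 4-h and 8-h libraries lay above the 0-h libraries of their line. In T-47D cells both 2-h libraries, at 1.1 and 1.17 CPM, did so too. That rise of 0.88 log2 was not called, and it passed without the filter on low counts (adjusted p = 0.0286). At 8 h the rise was 1.24 log2 in T-47D cells (SE 0.33, adjusted p = 0.00817) and 0.27 in Ishikawa cells (SE 0.0599, adjusted p = 0.00495). The T-47D value was 0.85 without 0-h replicate 2 (adjusted p = 0.1) and 0.89 without 8-h replicate 1 (adjusted p = 0.101), so that call rests on those libraries. The T-47D call at 4 h was lost without 0-h replicate 2 (adjusted p = 0.177) or 4-h replicate 1 (adjusted p = 0.126). Likewise the Ishikawa 8-h call was lost without 8-h replicate 1 (adjusted p = 0.0646), and the Ishikawa 4-h call without 4-h replicate 1 (adjusted p = 0.0762).

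Of the enzymes of synthesis, MTHFD1L had the largest rise at 8 h in T-47D cells. MTHFD1L, which releases formate for the cytosol (chr6:151186815-151423023, plus strand), ran in T-47D cells at 6.75 and 5.89 CPM at 0 h, 6.1 and 5.63 at 2 h, then 8.36 and 9.02 at 4 h, and lastly 10.3 and 9.75 at 8 h. The 4-h and 8-h libraries lay above every 0-h and 2-h library. MTHFD1L rose by 0.67 log2 at 8 h in T-47D cells (SE 0.115, adjusted p = 0.000229), while its 4-h call was lost without 0-h replicate 2 (adjusted p = 0.0831) or 4-h replicate 2 (adjusted p = 0.0705). The Ishikawa libraries gave 192 and 193 CPM at 0 h, 199 and 191 at 2 h, then 221 and 210 at 4 h, and lastly 209 and 223 at 8 h. There the 8-h rise was 0.17 log2 (adjusted p = 0.0473), and it was lost with the replicate number as a block (adjusted p = 0.0694) and in 7 fits that each left out 1 library.

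MTHFD2, the dehydrogenase and cyclohydrolase of the same branch, rose in both lines at 4 h and 8 h, by 0.30 log2 at 8 h in Ishikawa cells, with 0.29 in T-47D cells. ALDH1L2, which oxidises mitochondrial formyl-folate, rose in T-47D cells by 0.48 at 8 h (adjusted p = 0.000411) and passed no test in Ishikawa cells (0.12, adjusted p = 0.132). SHMT2, which splits serine to feed this branch, rose in T-47D cells at 8 h by 0.17, with -0.03 in Ishikawa cells. ASNS, the asparagine synthetase, rose at 8 h in both lines, by 0.18 and 0.25. PYCR1 and ALDH18A1, which act in proline synthesis, rose in T-47D cells by 0.41 and 0.15, with 0.12 and 0.15 in Ishikawa cells, where neither single time passed and only ALDH18A1 passed with 4 h and 8 h pooled (0.14, adjusted p = 0.0351). GOT1, an aspartate aminotransferase, rose by 0.17 in T-47D cells at 8 h.

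The serine pathway proper moved little. PHGDH, its first enzyme, and PSAT1, its second, passed no test against 0 h in either line, with changes at 8 h between -0.05 and 0.13 log2. PSPH, its last enzyme, rose in Ishikawa cells by 0.23 at 8 h (adjusted p = 0.00915) and gave 0.06 in T-47D cells (adjusted p = 0.57). GPT2, an alanine aminotransferase, and CTH, which makes cysteine from cystathionine, passed no test in either line. CBS, the enzyme before CTH, fell in Ishikawa cells at 8 h by 0.21 (adjusted p = 0.0241), and the call did not hold with 4 h and 8 h pooled (-0.15, adjusted p = 0.0816).

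SLC7A5 and SLC3A2 encode the light and heavy chains of LAT1, the exchanger that brings leucine and other large neutral amino acids into the cell, and both rose in both lines. SLC7A5 (chr16:87863629-87903113, minus strand) went in T-47D cells from 446 and 468 CPM at 0 h to 901 and 969 at 2 h, then 906 and 953 at 4 h, and lastly 807 and 804 at 8 h. Ishikawa libraries gave 1560 and 1680 CPM at 0 h, 2220 and 2220 at 2 h, then 3160 and 2740 at 4 h, and lastly 2660 and 3120 at 8 h. Every treated library lay above both 0-h libraries in both lines. The T-47D rise was complete at 2 h at 2.05-fold (log2 1.03 ± 0.0412, adjusted p = 5.55e-12), and by 8 h the level was 0.861 of that at 2 h (adjusted p = 0.00114), a fall that missed the threshold without 2-h replicate 2 (adjusted p = 0.0515). The Ishikawa rise was 1.37-fold at 2 h and 1.78-fold at 8 h, with a further 1.31-fold from 2 h to the 4-h and 8-h libraries together (adjusted p = 0.00145). Counted pseudogenes SLC7A5P1 and SLC7A5P2 share sequence with SLC7A5, and how reads with several alignments were treated is not given in the sources used here.

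SLC3A2 (chr11:62623476-62656352, plus strand) reached 312 and 297 CPM at 2 h, then 363 and 372 at 4 h, and lastly 352 and 340 at 8 h in T-47D cells, from 255 and 260 at 0 h. In Ishikawa cells it ran at 565 and 610 CPM before E2, 608 and 597 at 2 h, then 948 and 759 at 4 h, and lastly 728 and 921 at 8 h. The Ishikawa 4-h and 8-h libraries all exceeded the earlier ones, and the highest of them were 4-h replicate 1 and 8-h replicate 2, the pair of alike libraries. SLC3A2 rose at 8 h by 0.49 log2 in Ishikawa cells (SE 0.1, adjusted p = 0.00306, and 0.30 log2, still past the threshold, without 8-h replicate 2) and by 0.43 in T-47D cells (SE 0.041, adjusted p = 3.28e-07), and at 2 h by 0.24 in T-47D cells against 0.04 in Ishikawa cells, where it did not pass.

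The cationic transporters, which carry arginine and lysine, differed in the line with the larger rise. SLC7A1 (chr13:30083551-30169825, minus strand) was measured in T-47D cells at 40.2 and 41.7 CPM at 0 h, 44.2 and 42.2 at 2 h, then 59.7 and 57.4 at 4 h, and lastly 72.7 and 69.1 at 8 h, with all treated libraries above both 0-h libraries. Its T-47D change at 8 h was 0.79 log2 (SE 0.0547, adjusted p = 5.42e-09). The Ishikawa values were 467 and 492 CPM at 0 h, 510 and 504 at 2 h, then 559 and 534 at 4 h, and lastly 529 and 567 at 8 h. Here too every treated library exceeded the 0-h libraries, by 0.19 log2 at 8 h (adjusted p = 0.0219), a call lost without 0-h replicate 1 (adjusted p = 0.0762), either 2-h replicate (0.0507 and 0.0503) or 8-h replicate 2 (0.207).

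SLC7A2, a second carrier of cationic amino acids, rose in Ishikawa cells and was not called in T-47D cells. Its Ishikawa counts were 49 and 45 before E2, 61 and 72 at 2 h, then 162 and 123 at 4 h, and lastly 164 and 163 at 8 h, or 1.06 and 0.966 CPM at 0 h and 2.78 and 3.72 CPM at 8 h. All 4-h and 8-h libraries lay above the earlier ones. The 8-h level was 3.18-fold the 0-h level (log2 1.67 ± 0.247, adjusted p = 0.000266). In T-47D cells SLC7A2 was at 11 and 11.3 CPM at 0 h, 11.2 and 10.4 at 2 h, then 11.6 and 11.2 at 4 h, and lastly 10.1 and 12.2 at 8 h, with overlapping groups and a change at 8 h of 0.01 log2 (SE 0.104).

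Of the carriers of neutral amino acids, SLC1A5, which imports glutamine, rose at 8 h in both lines, by 0.32 log2 in Ishikawa cells (adjusted p = 0.000586) and 0.25 in T-47D cells (adjusted p = 0.000368). SLC38A1, another glutamine carrier, rose by 0.21 and 0.15. SLC38A2, which is known to be induced by amino acid starvation, dipped in T-47D cells at 2 h by 0.30 (adjusted p = 0.000794), from 454 and 460 CPM to 372 and 371, and stood at 475 and 465 CPM at 4 h. It passed no test in Ishikawa cells. SLC1A4, a carrier of serine and alanine, and SLC7A11, the cystine carrier, rose at 8 h in Ishikawa cells, by 0.17 and 0.25. In T-47D cells SLC1A4 gave -0.01, and SLC7A11 gave 0.38 (adjusted p = 0.0692) at under 5 CPM. SLC6A9, a glycine carrier, passed no test in either line.

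STC2, a secreted glycoprotein induced by cell stress and by estrogen, gave the largest change of the set. STC2 (chr5:172741726-172755450, minus strand) was measured in T-47D cells at 142 and 143 CPM at 0 h, 489 and 541 at 2 h, then 522 and 559 at 4 h, and lastly 715 and 732 at 8 h. The Ishikawa libraries gave 245 and 247 CPM at 0 h, 274 and 270 at 2 h, then 309 and 291 at 4 h, and lastly 288 and 296 at 8 h. All treated libraries exceeded the 0-h libraries of their line. In T-47D cells STC2 rose 3.61-fold by 2 h (log2 1.85 ± 0.0485, adjusted p = 3.81e-14) and 5.08-fold by 8 h, with a further step of 0.49 log2 from 2 h to 8 h (adjusted p = 1.04e-06). Its rise in Ishikawa cells was 1.19-fold at 8 h (log2 0.25 ± 0.0535, adjusted p = 0.00439). VLDLR, a receptor that takes up triglyceride-rich lipoproteins, rose in Ishikawa cells at 8 h by 0.25 (adjusted p = 0.0182) and was unresolved in T-47D cells, at about 5 CPM, with -0.003 ± 0.133.

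**Figure D3:**
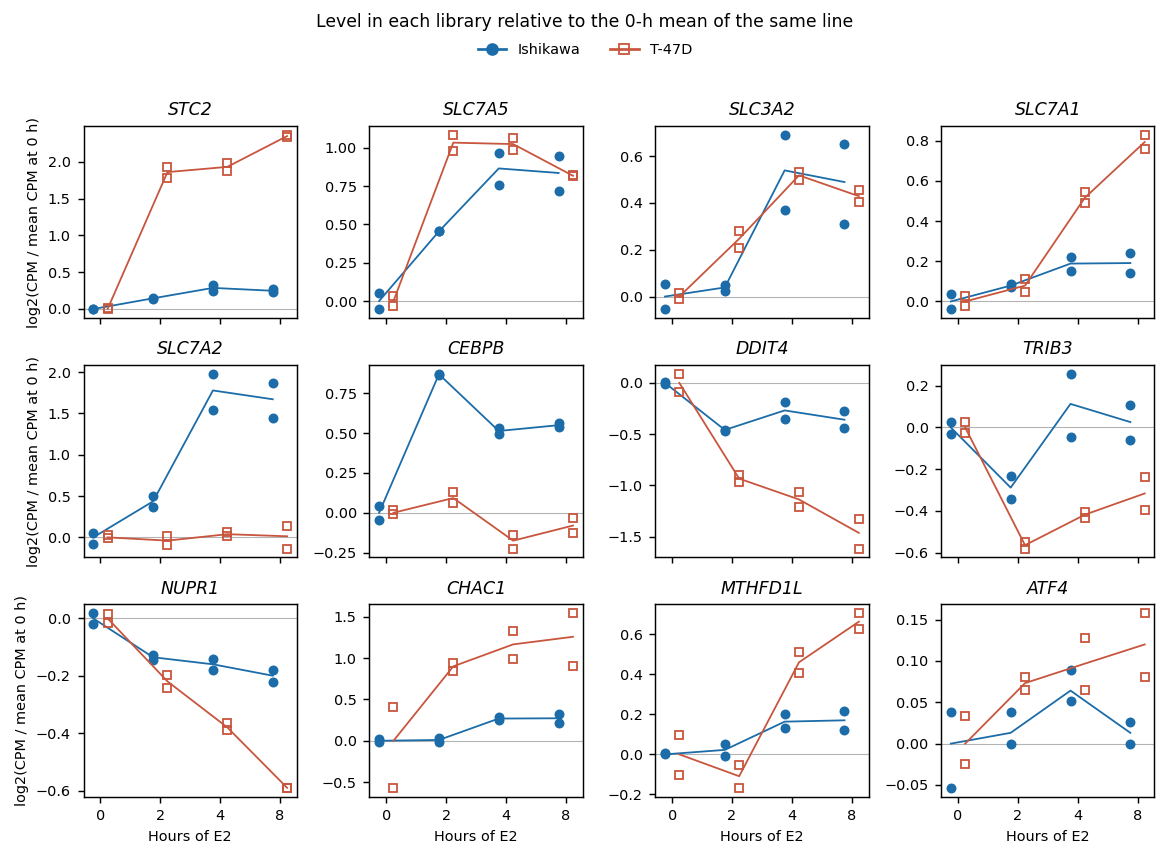
Level of 12 members in each library as log2 of the CPM over the 0-h mean of the same line, by hours of E2 (time points evenly spaced), with filled circles for Ishikawa and open squares for T-47D libraries, lines through the group means, and a separate vertical axis for each gene. STC2, SLC7A5 and DDIT4 had moved by 2 h in T-47D cells, SLC7A1 and MTHFD1L moved after 2 h, and CEBPB and SLC7A2 rose in Ishikawa cells alone among the calls.

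The timing of the calls was set out by class, with Early for genes that passed at 2 h and Late for those that passed at 4 h or 8 h but not at 2 h. In Ishikawa cells the Up classes held 2 Early and 15 Late members, the Down classes 1 Early and 2 Late, and 17 had no call. For T-47D cells the Up classes held 3 Early and 13 Late members, the Down classes 6 Early and 1 Late, and 14 had no call. The Early classes are the 2-h calls, set against all genes above. The Late classes were not counted over all genes, so their size is not set against a share. SLC7A5 was Early Up and DDIT4 Early Down in both lines. The 8 members CHAC1, CEBPG, ASNS, MTHFD2, MTHFD1L, SLC7A1, SLC1A5 and SLC38A1 were Late Up in both, with changes at 8 h from 0.17 to 0.32 log2 in Ishikawa cells and from 0.15 to 1.24 in T-47D cells. CHAC1 in T-47D cells was already up by 0.88 log2 at 2 h without passing, so its Late class there rests on the threshold. SLC3A2 and STC2 were Early Up in T-47D cells and Late Up in Ishikawa cells. The 7 members with no call in either line were ATF4, ATF5, PSAT1, PHGDH, GPT2, CTH and SLC6A9.

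The direct comparison with 2 h gave the change after the first response. From 2 h to 8 h in T-47D cells, 15 members rose (9.53% of all genes) and 3 of 37 fell, near the 7.23% of all genes. The 3 were DDIT4, NUPR1 and SLC7A5. Without 2-h replicate 2 the number that rose was 7. From 2 h to the 4-h and 8-h libraries together in Ishikawa cells, CEBPB alone fell, near the 2.6% of all genes. Over the same step 7 members rose (2.24% of all genes). That number was 2 without 2-h replicate 1 and 1 without 2-h replicate 2. TRIB3 and SESN2, which rose again after 2 h in Ishikawa cells (0.36 and 0.29 log2), had been lower at 2 h by 0.29 and 0.22, neither of which passed.

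Differences between the lines were tested as the interaction of line and time over all 16 libraries. At 2 h, 4 members responded differently (2.67% of all genes), at 4 h 9 did (6.03%), and at 8 h 10 did (10%). At 8 h, STC2, CHAC1, SLC7A1, MTHFD1L and ALDH1L2 changed more upward in T-47D cells, by 2.09, 0.96, 0.60, 0.50 and 0.36 log2. SLC7A2, DDIT4, CEBPB, SESN2 and NUPR1 changed more upward, or less downward, in Ishikawa cells, with differences (T-47D minus Ishikawa) of -1.66, -1.10, -0.64, -0.42 and -0.39. The CHAC1 difference was 1.55 log2 without T-47D 0-h replicate 1. It was lost without T-47D 0-h replicate 2 (0.57 log2, adjusted p = 0.267), without T-47D 8-h replicate 1 (0.60, adjusted p = 0.281) and without Ishikawa 8-h replicate 2 (0.88, adjusted p = 0.0607). For SLC7A5 the response differed at 2 h by 0.60 (SE 0.0955, adjusted p = 0.000501), and at 8 h the difference was -0.02 with a 95% interval from -0.206 to 0.169. Cell line, culture and RNA handling cannot be told apart in this design.

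**Figure D4:**
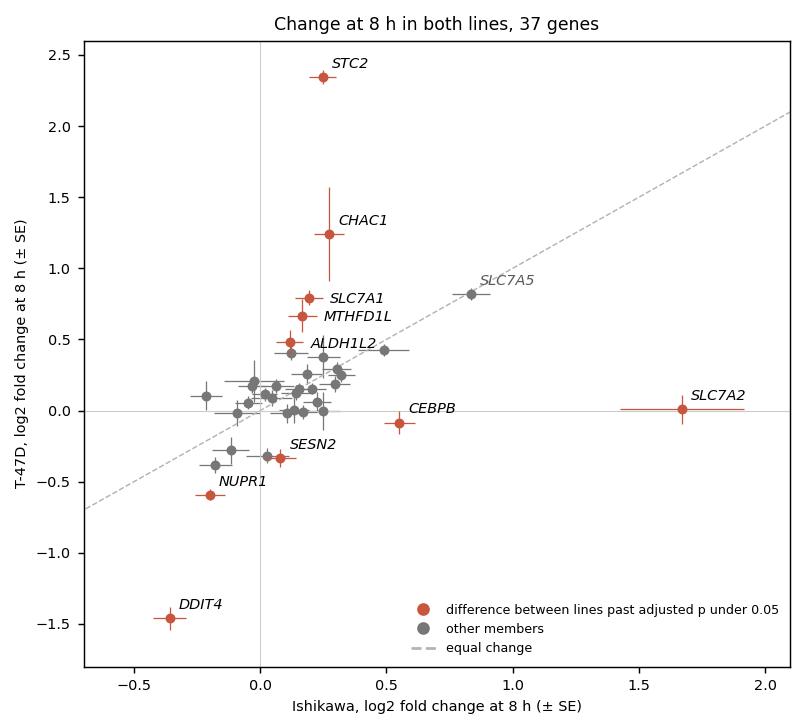
Log2 fold change at 8 h against 0 h in Ishikawa (horizontal) and T-47D cells (vertical) for the 37 genes, with bars of 1 SE. Red points are the 10 members whose change differed between the lines, the dashed line marks equal change, and SLC7A5 lies on it at 0.83 and 0.82 while STC2 lies far above at 0.25 and 2.34.

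Before E2 the lines already differed in nearly every member. The calls, log2 differences and the ATF4 ratio below are from the fit of all 16 libraries. CPM were scaled within each line, so their ratios differ slightly from that fit. At 0 h, 34 members were higher in Ishikawa cells (42.4% of all genes), and NUPR1 and SLC7A2 were higher in T-47D cells (39.5% of all genes). JDP2 was the exception with no call, at 64.2 and 68.8 CPM in Ishikawa and 57.7 and 62.7 CPM in T-47D libraries. SLC7A11 differed most, at 505 and 459 CPM against 3.35 and 3.23. PSAT1 stood at 728 and 652 CPM against 13.7 and 14, and ASNS at 480 and 446 CPM against 21.9 and 21.9. ATF4 in T-47D cells was at 0.166 of its Ishikawa level. At the near end of the order, SLC38A1 was lower in T-47D cells by 0.16 log2 (adjusted p = 0.00682), with 936 and 930 CPM against 1150 and 1040.

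**Figure D5:**
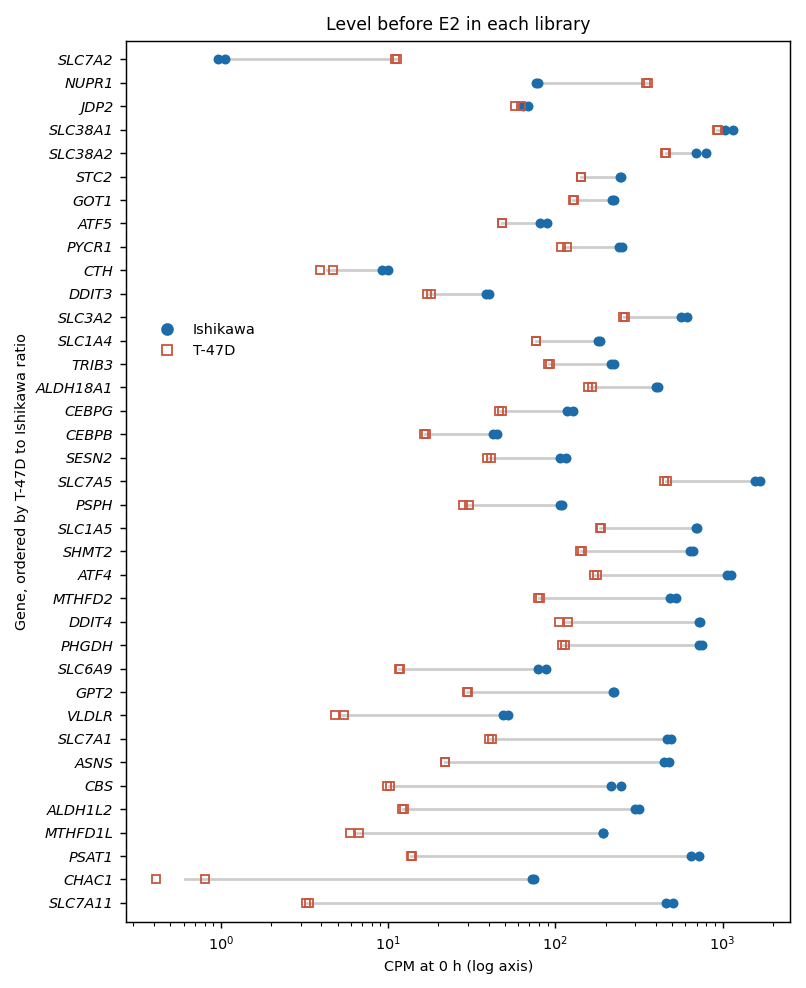
CPM at 0 h (log axis) of each of the 37 genes in the Ishikawa libraries (filled circles) and the T-47D libraries (open squares), with grey lines joining the group means and genes ordered by the ratio of the lines. Only markers of the same gene are to be compared, since counts are not set per length. CPM were scaled within each line, so the distance between the lines is approximate. Genes run from Ishikawa-high at the bottom (SLC7A11, 505 and 459 CPM against 3.35 and 3.23) to T-47D-high at the top (SLC7A2 and NUPR1).

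Neighbouring parts of the pathway were read from lists taken by name, each to be set against the same shares of all genes at 8 h (12% up and 10.1% down for Ishikawa, 15.4% up and 14.3% down for T-47D). These lists too were chosen with earlier results of these data known, so their shares are description. Of 20 aminoacyl-tRNA synthetases, which charge tRNAs and several of which are known ATF4 targets, 7 rose (35%) and 0 fell at 8 h in Ishikawa cells, and 12 rose (60%) and 0 fell in T-47D cells. FARSB, a subunit of the phenylalanine enzyme, rose by 0.71 log2 in T-47D cells and 0.30 in Ishikawa cells. YARS and IARS rose in T-47D cells by 0.58 and 0.43. The medians of the list at 8 h were 0.14 in Ishikawa cells, with 0.23 in T-47D cells. VARS was called up in Ishikawa cells at 2 h and 4 h, but the 4-h libraries gave 7.34 and 0.775 CPM, so its replicates did not hold together.

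Of 16 genes of the eIF2α pathway, 3 rose (18.8%) and 2 fell (12.5%) at 8 h in Ishikawa cells, both near the share of all genes, and 7 rose (43.8%) and 1 fell (6.25%) in T-47D cells. EIF2S1, which encodes eIF2α, rose by 0.39 and 0.31 log2, and EIF2B3, a subunit of its exchange factor, by 0.36 and 0.39. PPP1R15A, the inducible subunit that takes the phosphate off eIF2α, fell by 0.27 and 0.24. ATF3, a stress factor downstream of ATF4, fell in Ishikawa cells by 0.88 at 2 h and was down by 0.39 at 8 h. In T-47D cells it rose at 2 h, from 22.8 and 20.8 CPM to 28.6 and 28. GCN1, which activates the kinase GCN2, and EIF2AK4, which encodes GCN2, rose in T-47D cells by 0.25 and 0.24.

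Of 18 amino acid transporters outside the set that were tested, 6 rose (33.3%) and 2 fell (11.1%) at 8 h in Ishikawa cells, and 5 rose (27.8%) and 4 fell (22.2%) in T-47D cells. The Ishikawa falls were near the share of all genes. The taurine carrier SLC6A6 rose in Ishikawa cells from 25.9 and 28.6 CPM at 0 h to 63.5 and 76.9 at 8 h (log2 1.36), and SLC6A15 by 0.73. SLC1A1, a carrier of glutamate and cysteine, rose by 0.41 in Ishikawa cells, with 0.96 in T-47D cells. SLC7A8, another light chain that pairs with SLC3A2, fell in T-47D cells from 159 and 162 CPM to 112 and 108 at 8 h (log2 -0.54). Among other enzymes of amino acid and folate metabolism, 7 of 25 rose (28%) and 4 fell (16%) in Ishikawa cells, and 7 of 23 rose (30.4%) and 6 fell (26.1%) in T-47D cells. PRODH, which breaks down proline, fell in both lines, by 1.16 and 0.35, and MTHFD1, the cytosolic relative of MTHFD1L, rose in T-47D cells by 0.48.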

How the data were processed

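Poly(A) RNA of 16 libraries was sequenced. Reads were aligned to hg19 with HISAT2, converted with SAMtools and assigned to UCSC Known Genes with featureCounts, and the authors deposited raw counts per gene, 1 table per line. Versions, strand setting and the treatment of read pairs and multiple alignments are not given in the sources used here. Even numbers made up 71.2% to 74.6% of counts from 1 to 10, so a count need not be 1 independent fragment, and intervals cover only the spread between libraries. Members and gene lists were chosen with earlier results of these data known.

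Counts were fitted in R 4.3.3 with edgeR 4.0.16 (filterByExpr, TMM, quasi-likelihood F-test, Benjamini-Hochberg over all genes tested). Each line was 1 fit of 4 time points with no replicate block, 15787 genes in Ishikawa and 15594 in T-47D cells, and the interaction used 16 libraries and 17090 genes. CPM used TMM-scaled library sizes within each line. SE was the log2 fold change over the square root of F, and 95% intervals were 1.96 SE. The biological coefficient of variation was 6.45% and 5.02%. No replicate pair was identical or within counting noise. The departure of each library from the mean of its own time was compared between same-numbered libraries of different times. These departures correlated at -0.324 to 0.0671 in Ishikawa and -0.118 to 0.187 in T-47D cells, so numbers were not taken as pairs. The procedure was tested on simulated data. Every member is named, and library values are given for ATF4, for members past a log2 change of 0.5 with an adjusted p under 0.05 at any time (at most 12 per line, mean of at least 20 counts), and for up to 6 with the largest interaction at 8 h. Values of a few other members were added after they were seen. From the other lists, up to 4 genes with the largest 8-h change were named per line, besides VARS, ATF3, EIF2AK4 and pairs across lines. Alternatives were DESeq2 1.42.0, RLE scaling, other filters and thresholds, a replicate block, fits of only the groups compared and leaving out each library. Positions are from GENCODE on GRCh37, which is hg19, and promoter windows from RefSeq. The result of 1 marker list is not reported here.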

Additional observations from a re-analysis of the deposited data

Results flagged for a closer look

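These results were singled out because the change against 0 h differed between the lines in the interaction test (edgeR, adjusted p under 0.05). Each value is the T-47D change minus the Ishikawa change on the log2 scale. The STC2 difference was 1.73 (2 h), 1.65 (4 h) and 2.09 (8 h), and that of DDIT4 was -0.45, -0.85 and -1.10 at the same times. The DDIT4 value at 2 h (adjusted p = 0.0366) was lost in 7 of 16 fits that left out 1 library, where it lay between -0.50 and -0.35. For CEBPB it was -0.76, -0.68 and -0.64 in that order, and SLC7A2 gave -1.74 at 4 h, then -1.66 at 8 h. SLC7A5 differed by 0.60 at 2 h. SLC7A1 differed by 0.34 at 4 h, which was lost without T-47D 4-h replicate 1 (0.29, adjusted p = 0.0678), and by 0.60 at 8 h. Calls at 4 h and at no other time were TRIB3 at -0.52, PSPH at -0.37 and VLDLR at -0.46. The TRIB3 difference at 8 h was -0.35, which missed the threshold and passed in DESeq2 (adjusted p = 0.0131). The SESN2 difference was -0.39 at 4 h, then -0.42 at 8 h. Differences of 0.88 at 2 h and 0.90 at 4 h for CHAC1, and of -0.21 at 4 h for NUPR1, missed the threshold. They passed in DESeq2 (adjusted p = 0.0334, 0.00981 and 0.00361), so a call at 8 h does not place these differences at 8 h. Called at 8 h and at no other time were NUPR1 at -0.39, MTHFD1L at 0.50, ALDH1L2 at 0.36 and CHAC1 at 0.96. The CHAC1 value rests on libraries with 17 to 98 counts in T-47D cells and was lost without T-47D 0-h replicate 2 (0.57), T-47D 8-h replicate 1 (0.60) or Ishikawa 8-h replicate 2 (0.88). No group held the 4 samples that a test for a single outlying library needs.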

How the results depend on the processing

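RLE scaling, at least 10 counts in every library and the replicate block left each count of members called within 1.5 times its value. The share of all genes called was not counted under any alternative or left-out library. The counts there describe the members only, not the members against all genes. With the replicate block the numbers that rose at 8 h were 15 in Ishikawa and 16 in T-47D cells. Samples that share a number share only that number. In Ishikawa cells, an adjusted p under 0.01 gave 10 up and 1 down at 8 h, 0 down at 4 h, and 11 up and 1 down for 4 h and 8 h together. An adjusted p under 0.1 gave 3 down at 2 h, 16 up and 2 down at 4 h, and 14 line differences at 4 h. DESeq2 gave 3 down at 2 h and 14 line differences at 4 h, no filter gave 3 down at 2 h and 7 line differences at 2 h, and fits of only the groups compared gave 2 down at 2 h and 1 down at 8 h. A further pair of alternatives was chosen after seeing the data. A crossed replicate block, with the Ishikawa 8-h numbers exchanged, gave 2 down at 2 h. Leaving out both alike Ishikawa libraries gave 2 down at 2 h, 6 up at 4 h, 11 up and 1 down at 8 h, and 1 down for 4 h and 8 h together. Leaving out 1 library at a time gave, in Ishikawa cells, 2 to 4 up and 1 to 2 down at 2 h, 6 to 16 up and 0 to 1 down at 4 h, 10 to 18 up and 1 to 4 down at 8 h, 11 to 19 up and 1 to 3 down for 4 h and 8 h together, and 1 to 10 up from 2 h to these. In T-47D cells it gave 5 to 10 up at 4 h and 7 to 15 up from 2 h to 8 h. ATF4 in Ishikawa cells, which passed no test, changed sign without 0-h replicate 1 (-0.0212 at 2 h and -0.023 at 8 h, up to 0.0653 and 0.0634 without other libraries) and without 8-h replicate 2 (-0.00151 at 8 h). The cause of these shifts was not tested. With 2 libraries per group, changes of about 0.1 log2 were not resolved.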
